A study of Mus musculus with 2 samples.

Results

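The 10 genes described here, Atf4, Ddit3, Asns, Chac1, Trib3, Aldh1l2, Psat1, Phgdh, Shmt2 and Mthfd2, belong to the ATF4 arm of the integrated stress response in the mouse. They were chosen by symbol for their known place in this pathway, matched to the Ensembl identifiers of the count table, and read beside Eif2s2, the gene of the beta subunit of initiation factor eIF2, whose transcript was lower in the knockout library. All 10 are among the 19720 genes listed, and 9 of them, all but Trib3, are among the 14366 genes whose reads in the pair of libraries add up to 20 or more, which are called measured. RNA sequencing was done on total RNA of embryonic forebrain from H2A.Z conditional knockout mice (H2AZcKO) and from mice with floxed H2A.Z alleles (H2AZfl/fl), which serve as the control, both of strain C57BL/6. H2A.Z is a histone variant found in place of canonical H2A in part of the nucleosomes. Titles give embryonic day 16 and a stage field gives embryonic day 12, the tissue is labelled telencephalic, and no Cre driver, number of animals or pooling is named in the labels. The table holds 1 count column per genotype, although the design text speaks of triplicates, so each difference is between 1 knockout library and 1 control library, has no replicate check and carries no test.

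Cells phosphorylate the alpha subunit of eIF2 when amino acids run short, when proteins misfold in the endoplasmic reticulum, or under viral or heme stress. Phosphorylated eIF2 blocks its own exchange factor, eIF2B, and general initiation slows, while the messenger of the transcription factor ATF4 is translated better because of short reading frames in its leader. ATF4 then raises genes of amino acid synthesis, amino acid transport, tRNA charging and mitochondrial one-carbon metabolism, usually as a dimer with a C/EBP-family protein at C/EBP-ATF response elements. An RNA count therefore reads the output of ATF4, its target transcripts, rather than the phosphorylation or the translation step that sets it off.

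The response element can be read in the promoters of some of these genes, and windows of 60 bases before the RefSeq start of the gene are shown for Asns and Chac1, which hold it, for Jdp2 and Slc7a11, which lie at opposite ends of the ratios among the other measured pathway genes that hold it, and for Aars, a tRNA synthetase gene. Sequences are from RefSeq on GRCm38.p6, on the strand of the gene, and count from RefSeq starts, which can differ from the GENCODE M21 ends of the gene; the windows of Jdp2 and Aars, and part of that of Asns, lie inside the GENCODE M21 models. Capitals mark the letters TGATGNAA or, for the element on the opposite strand, TTNCATCA.
Asns, chr6:7693210-7693269, minus strand: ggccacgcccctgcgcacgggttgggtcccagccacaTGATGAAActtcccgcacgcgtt
Chac1, chr2:119351023-119351082, plus strand: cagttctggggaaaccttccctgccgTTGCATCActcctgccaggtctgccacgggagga
Jdp2, chr12:85599356-85599415, plus strand: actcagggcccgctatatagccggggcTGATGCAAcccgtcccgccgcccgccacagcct
Slc7a11, chr3:50443637-50443696, minus strand: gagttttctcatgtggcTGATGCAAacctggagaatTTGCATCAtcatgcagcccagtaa
Aars, chr8:111033704-111033763, plus strand: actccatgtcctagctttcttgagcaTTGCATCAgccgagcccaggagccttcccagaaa

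The libraries held 9028523 reads in genes for H2AZcKO and 8474545 for H2AZfl/fl. Ratios are log2 of knockout over control after scaling by the trimmed mean of M values (TMM) with a prior of 0.5 read, and each interval is the exact 95% one (Clopper-Pearson) for how a gene's reads divide between the libraries, which covers counting error only. The targeted gene, H2afz, had 535 reads in H2AZcKO, against 1152 in H2AZfl/fl, a log2 ratio of -1.16 (-1.31 to -1.01). In H2AZcKO, 3.52% of all measured genes stood 1.5-fold or more above H2AZfl/fl and 5.43% stood as far below it. For 12.5% the interval lay above level and for 9.3% below it.

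Eif2s2 was the single gene of the eIF2 complex and its exchange factor that stood apart. The gene is on chromosome 2, minus strand, at 154871410 to 154892935 (GRCm38), with 474 reads in H2AZcKO, against 917 in H2AZfl/fl, which is 2.01-fold lower and a log2 ratio of -1.01 (-1.17 to -0.85). Only 1.92% of measured genes had a lower ratio. The genes of the other subunits were level: Eif2s1, the alpha subunit that is phosphorylated, had 757 reads in H2AZcKO, against 733 in H2AZfl/fl, a log2 ratio of -0.01 (-0.16 to 0.14). Eif2s3x, the X-linked gamma subunit gene, had 2715 and 2606 reads in the same order, a log2 ratio of 0.0026 (-0.08 to 0.08). Per kilobase of exon, the level of Eif2s2 was 0.459 of that of Eif2s1 in H2AZcKO and 0.917 in H2AZfl/fl, so the balance of the subunit transcripts differed between the libraries, while Eif2s1 stood at 0.215 of Eif2s3x in H2AZcKO and 0.217 in H2AZfl/fl.

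Eif2s2 was not lower alone at its locus. Raly, the RNA-binding protein gene beside it, had 908 reads in H2AZcKO, against 1638 in H2AZfl/fl, a log2 ratio of -0.91 (-1.03 to -0.79). The gene model of agouti (a), a melanocortin antagonist, runs from 154791402 to 155051012 across Raly and Eif2s2, and had 25 reads in H2AZcKO and 0 in H2AZfl/fl, and Gm14226 inside the same model had 817 and 14. How the counting treated strand is not stated, so reads where these models overlap are uncertain in origin. Further out, Ahcy at 0.21 (-0.09 to 0.50) and Chmp4b at 0.05 (-0.08 to 0.18) had intervals across level. As background, a known mouse agouti allele, lethal yellow, is a deletion that removes Eif2s2 and the coding part of Raly and places agouti under the Raly promoter; the labels name no agouti allele for either genotype, and whether the locus is rearranged was not tested.

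Beside this lower eIF2 beta transcript, the measured members leaned slightly to the higher side in H2AZcKO, and none was 1.5-fold apart. Of 9 measured members, 7 had a ratio above level, beside 7241 of all 14366 measured genes. At least 1.5-fold higher were 0 members and at least 1.5-fold lower 0, where the shares of all measured genes were 3.52% and 5.43%. The median log2 ratio of the members was 0.21, beside 0.002 over all measured genes. The interval lay above level for 4 of 9, Asns, Atf4, Aldh1l2 and Psat1, and below level for 0. The corresponding share was 12.5% of all measured genes. Among the 5569 genes in the read range of these 4 members, 552 to 3047 reads in the pair of libraries, it was 14.7%. This range was set by the members whose interval lay above level. Phgdh and Shmt2 also fall in it, and Ddit3, Mthfd2 and Chac1 fall below it, so that share is not matched to the 9 members. Members are not replicates, and with 1 library per genotype a lean of this size cannot be set against the spread between animals.

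**Figure D1:**
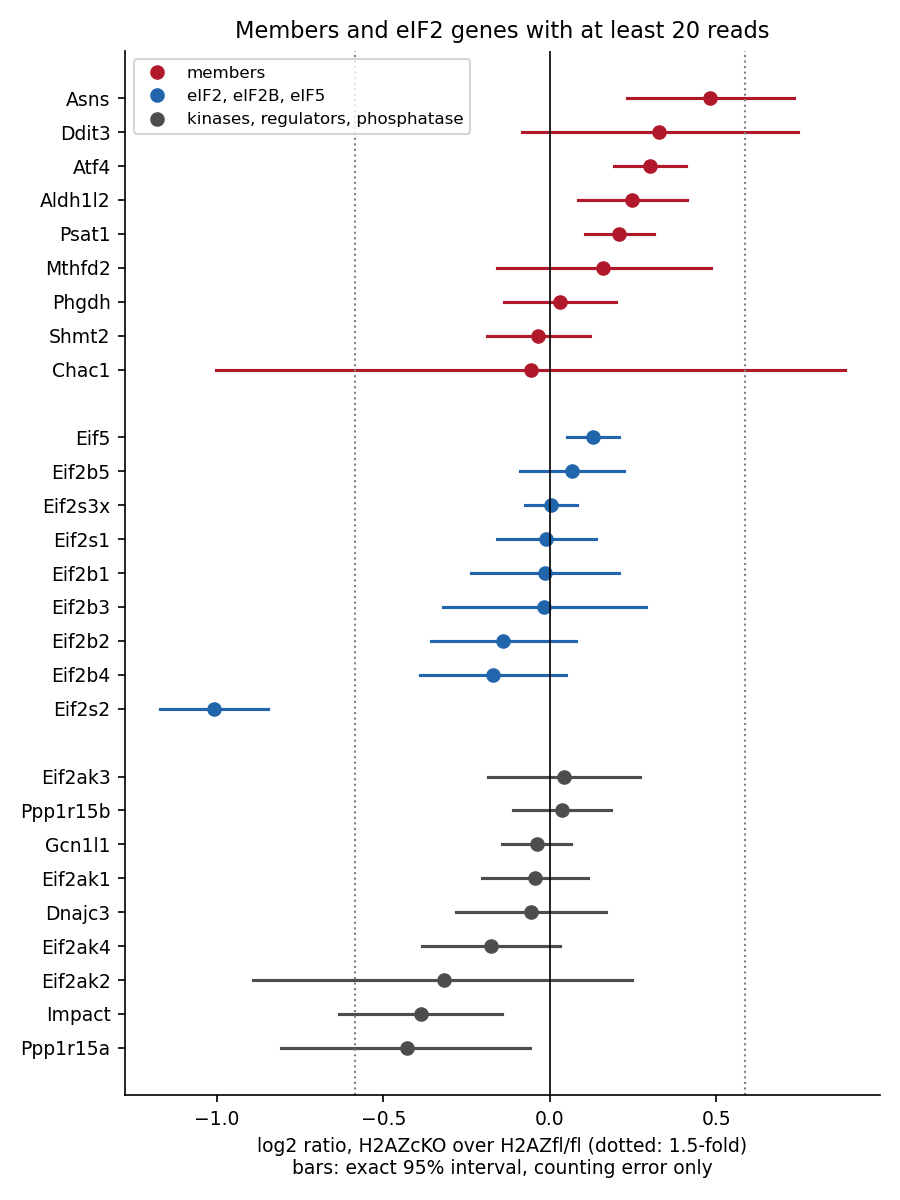
Log2 ratio of H2AZcKO over H2AZfl/fl for the 9 measured members, the genes of eIF2, eIF2B and eIF5, and those of the eIF2 kinases, regulators and phosphatase; points are ratios, bars are exact 95% intervals for counting error, and dotted lines mark 1.5-fold. Asns is the highest member at 0.48 and Eif2s2 stands alone at -1.01.

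Of the transcription factor genes, Atf4 itself was higher. The gene is on chromosome 15, plus strand, at 80255184 to 80257540, with 1595 reads in H2AZcKO, against 1245 in H2AZfl/fl, or 178.8 and 145.2 TMM-scaled CPM (counts scaled to a common library size). The ratio was 1.23-fold, a log2 ratio of 0.30 (0.19 to 0.41), and 9.69% of measured genes had a higher one. Ddit3, which encodes CHOP, a C/EBP-family factor induced by ATF4 and tied to cell death under lasting stress, had 115 reads in H2AZcKO and 88 in H2AZfl/fl. Its log2 ratio was 0.33 (-0.08 to 0.75), so it was placed like Atf4 but the counting interval crossed level. Ddit3 lies on chromosome 10 from 127290774 to 127296288 and its model shares 68 bases with the methionyl-tRNA synthetase gene Mars on the other strand.

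Among enzymes of amino acid synthesis, Asns had the highest ratio of all measured members. Asns encodes asparagine synthetase, a classical target of the amino acid response (chr6:7675169-7693254, minus strand), with 327 reads in H2AZcKO, against 225 in H2AZfl/fl. Its ratio was 1.40-fold, a log2 ratio of 0.48 (0.23 to 0.73), and 4.8% of measured genes had a higher one. Psat1 and Phgdh act in the same short route, that of serine synthesis from a glycolytic intermediate, and were not placed alike. Psat1, the aminotransferase of the second step (chr19:15904678-15947337, minus strand), had 1663 reads in H2AZcKO, against 1384 in H2AZfl/fl, a log2 ratio of 0.21 (0.10 to 0.31). Phgdh, the dehydrogenase of the first step (chr3:98313170-98339990, minus strand), had 594 and 559 reads in the same order, a log2 ratio of 0.03 (-0.14 to 0.20), which lies just below level when scaled by total reads. Psph, the phosphatase that completes serine, had 153 reads in H2AZcKO and 137 in H2AZfl/fl, a log2 ratio of 0.10 (-0.24 to 0.45). Psph is named to complete the route, with its value seen. The counting intervals of the 3 genes overlap.

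The 3 mitochondrial one-carbon members were mixed. Aldh1l2, which oxidises formyl-tetrahydrofolate in mitochondria (chr10:83487450-83534140, minus strand), had 687 reads in H2AZcKO, against 556 in H2AZfl/fl, a log2 ratio of 0.25 (0.09 to 0.41). Mthfd2, the dehydrogenase and cyclohydrolase abundant in embryonic and proliferating cells (chr6:83305691-83325908, minus strand), had 178 and 153 reads in the same order, a log2 ratio of 0.16 (-0.16 to 0.48). Shmt2, which splits serine to glycine and a one-carbon unit (chr10:127517123-127522444, minus strand), had 701 reads in H2AZcKO and 690 in H2AZfl/fl, a log2 ratio of -0.03 (-0.19 to 0.12). Aldh1l2 was thus the one with an interval above level, and Shmt2 lay near level with a narrow interval. As the counting intervals of these 3 genes overlap, their ratios are not separated from each other.

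The genes that are most strongly induced in an active response in other settings were near the limit of detection. Chac1, which degrades glutathione (chr2:119351229-119354381, plus strand), had 21 reads in each library, a log2 ratio of -0.06 (-1.0 to 0.89). Trib3, a pseudokinase that dampens ATF4 and CHOP (chr2:152337422-152344032, minus strand), had 1 read in each library and was not measured. At this depth a difference was not detectable for Trib3, and the interval for Chac1 reaches past 1.5-fold either way. For 6 of 9 measured members, Atf4, Aldh1l2, Psat1, Phgdh, Shmt2 and Mthfd2, the whole interval lay within 1.5-fold of level, whereas it reached 1.5-fold higher for Asns, Ddit3 and Chac1. Overlapping gene models may add uncertainty for 5 members: besides Ddit3, another gene model overlaps Aldh1l2 (D10Wsu102e), Psat1 (the pseudogene Gm3329), Shmt2 (Ndufa4l2) and Mthfd2 (Gm43890). These overlaps are of whole models from start to end, and whether exons overlap was not tested.

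**Figure D2:**
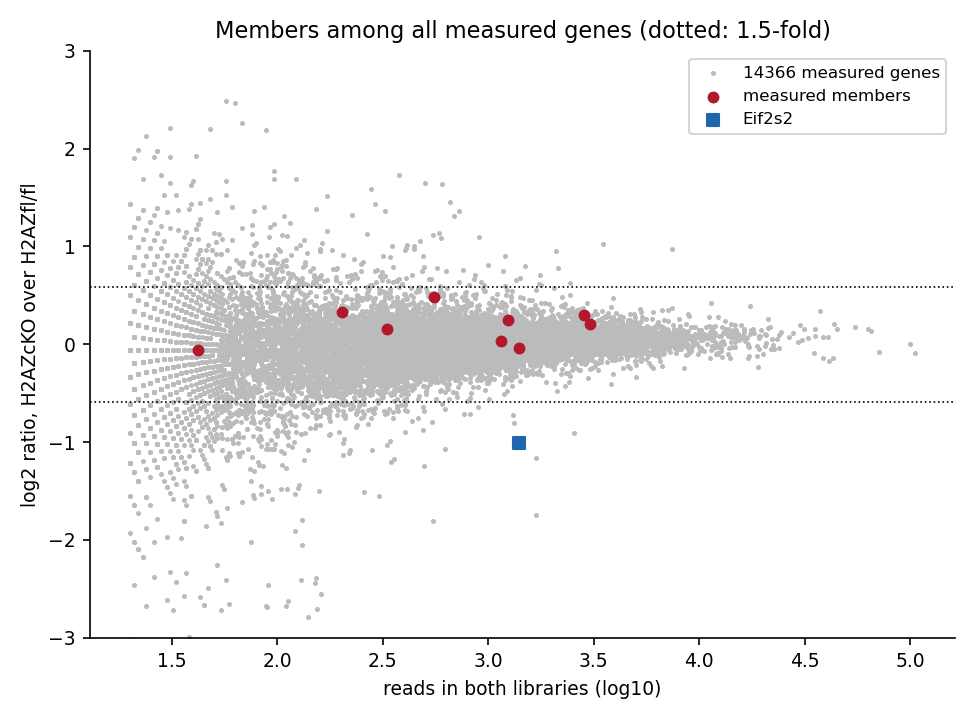
Log2 ratio of H2AZcKO over H2AZfl/fl against the reads in both libraries (log10) for the 14366 measured genes, with the 9 measured members and Eif2s2 marked; dotted lines mark 1.5-fold, and 64 genes beyond 3 log2 units are outside the range shown. The members lie within the band of the other genes, and Eif2s2 lies below the 1.5-fold line.

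The order of the members' levels per kilobase of exon was the same in both libraries. Atf4 was highest, with 75.8 TMM-scaled CPM per kilobase in H2AZcKO and 61.6 in H2AZfl/fl, and Psat1 followed with 43.8 and 37.9 in the same order. Phgdh, at 26.8 in H2AZcKO and 26.2 in H2AZfl/fl, and Shmt2, at 25.3 and 25.9, had overlapping exact 95% Poisson intervals in each library. Asns, with 13.4 in H2AZcKO and 9.59 in H2AZfl/fl, ranked above Aldh1l2, with 10.3 and 8.64, with separate intervals in H2AZcKO and overlapping ones in H2AZfl/fl. Ddit3, with 7.53 in H2AZcKO and 5.99 in H2AZfl/fl, and Mthfd2, with 5.72 and 5.12, had overlapping intervals in both libraries. Chac1, at 1.44 in H2AZcKO and 1.496 in H2AZfl/fl, and Trib3, at 0.0528 and 0.0549, came last, so Chac1 and Trib3 had the lowest RNA levels per length in both genotypes. These lengths are merged exons of GENCODE M21, which may include bases that the tissue does not use.

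**Figure D3:**
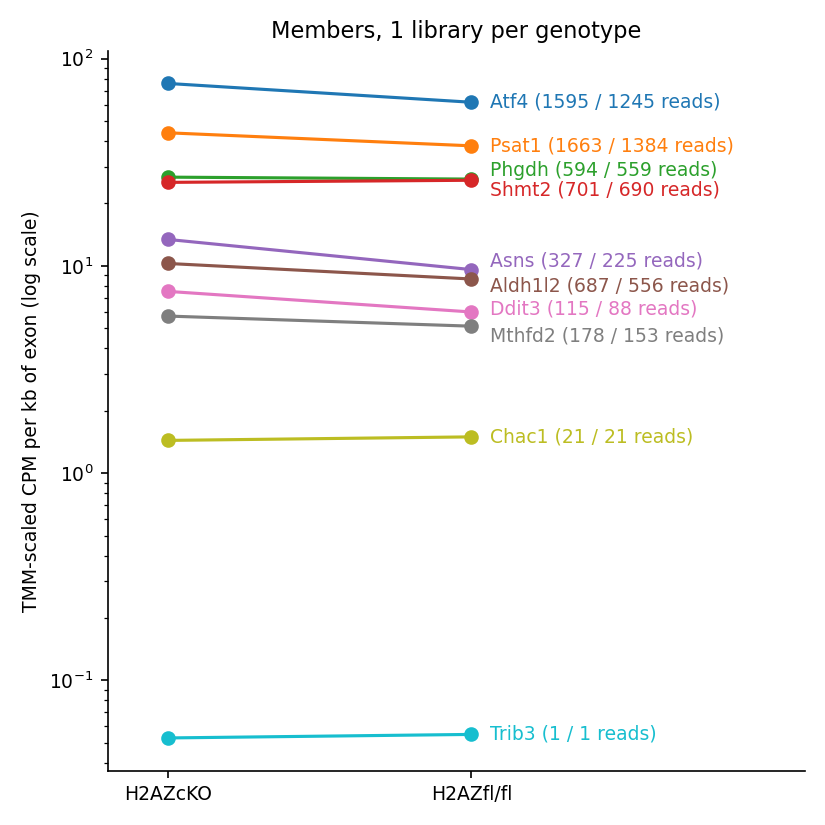
TMM-scaled CPM per kilobase of exon (log axis) of the 10 members in the H2AZcKO and H2AZfl/fl libraries, 1 point per library, joined per gene; reads in H2AZcKO and then H2AZfl/fl stand beside each name. The order of the genes is the same in both, from Atf4 at 75.8 and 61.6 to Trib3 at 0.0528 and 0.0549.

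The genes that set eIF2 phosphorylation were level or lower. Of 9 measured genes of eIF2 kinases, their regulators and the phosphatase subunits, 0 were 1.5-fold apart. The interval lay below level for 2 and above it for 0, beside 9.3% and 12.5% of all measured genes. With 9 genes these counts say little of the list. Ppp1r15a, which encodes GADD34, the stress-induced subunit that leads a phosphatase to eIF2 and is itself an ATF4 pathway target, had 108 reads in H2AZcKO, against 140 in H2AZfl/fl, a log2 ratio of -0.43 (-0.81 to -0.06). Impact, an inhibitor of GCN2 signalling abundant in neurons, had 248 and 312 reads in the same order, a log2 ratio of -0.39 (-0.63 to -0.14). Ppp1r15a was thus on the lower side while Atf4 and Asns were on the higher side. The 4 kinase genes had intervals across level: PERK (Eif2ak3) was at 0.04, the heme-regulated kinase (Eif2ak1) at -0.05, GCN2 (Eif2ak4) at -0.18 and PKR (Eif2ak2), with 50 reads in H2AZcKO and 60 in H2AZfl/fl, at -0.32. Ppp1r15b, the constitutive phosphatase subunit, was at 0.04, Gcn1l1, the GCN2 activator, at -0.04, and Dnajc3, an inhibitor of the kinases, at -0.06.

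In the eIF2B exchange factor, the target of phosphorylated eIF2, the 5 subunit genes had log2 ratios between -0.17 (-0.39 to 0.05) for Eif2b4 and 0.07 (-0.09 to 0.22) for Eif2b5, with Eif2b2 at -0.14, Eif2b3 at -0.02 and Eif2b1 at -0.01. Eif5, the GTPase-activating partner of eIF2, was at 0.13 (0.05 to 0.21), the single gene of this list with an interval above level. Eif2s3y is not analysed here.

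Few partners and relatives of ATF4 and CHOP had many reads. Of 7 listed, 4 were measured, and Jdp2 and Cebpd, 2 of them, stood 1.5-fold or more higher, beside 3.52% of all measured genes. Cebpd reached the read minimum through its 14 reads in H2AZcKO, while Atf3 and Nupr1, with fewer reads in H2AZcKO than in H2AZfl/fl, did not reach it, so the count says little of the list. Jdp2, a repressor of the AP-1 family that can pair with CHOP, had 64 reads in H2AZcKO, against 36 in H2AZfl/fl, a log2 ratio of 0.76 (0.16 to 1.40), and Cebpd, a C/EBP factor, had 14 and 7 reads with an interval from -0.46 to 2.49. Atf5, the closest relative of ATF4 and likewise under translational control by eIF2, had 459 reads in H2AZcKO, against 331 in H2AZfl/fl, a log2 ratio of 0.41 (0.21 to 0.62), which places it beside Asns. Cebpg, a dimer partner of ATF4, had 760 and 658 reads in the same order, a log2 ratio of 0.15 (-0.0011 to 0.30). Atf3, Cebpb and Nupr1, which are induced in an acute response, had 1, 3 and 1 reads in H2AZcKO and 6, 3 and 5 in H2AZfl/fl, and a difference was not detectable at this depth.

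Paralogs of the members, most of which are not known as ATF4 targets, included genes as far from level as the members. Trib2, a pseudokinase related to Trib3, had 1505 reads in H2AZcKO, against 1132 in H2AZfl/fl, a log2 ratio of 0.35 (0.24 to 0.47), and Trib1 was at 0.19 (-0.11 to 0.48). Chac2, the relative of Chac1, was at 0.26 (-0.28 to 0.81). Cytosolic or mitochondrial isoenzymes of one-carbon metabolism were level, with Mthfd2l at 0.06 (-0.16 to 0.29), Shmt1 at -0.0060 (-0.32 to 0.31) and Aldh1l1 at -0.05 (-0.33 to 0.23).

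The wider list of ATF4 targets, written from general knowledge of the pathway, had small ratios on both sides of level for the most part, with more genes above it than below. Of 28 measured genes, 0 were at least 1.5-fold higher and 2 at least 1.5-fold lower, beside 3.52% and 5.43% of all measured genes. Above level were 20 and below it 8, and the median log2 ratio was 0.08, beside 0.002 over all measured genes. The lower ones were Slc7a11, the cystine transporter, with 69 reads in H2AZcKO, against 105 in H2AZfl/fl, a log2 ratio of -0.66 (-1.12 to -0.21), and Cth, the cystathionine lyase that makes cysteine, with 18 and 27 reads and an interval across level. The furthest on the higher side, the hormone gene Stc2 at 0.42 and the translation repressor gene Eif4ebp1 at 0.42, had few reads and intervals across level. The interval lay above level for 4 genes and below it for 1, beside 12.5% and 9.3% of all measured genes. The 4 were named after their values were seen. Aldh18a1, of proline synthesis, was at 0.28 (0.16 to 0.40) and the cationic amino acid transporter gene Slc7a1 at 0.26 (0.13 to 0.40). The neutral amino acid transporter gene Slc1a4 was at 0.23 (0.09 to 0.36) and Slc38a2, a system A transporter gene, at 0.12 (0.05 to 0.20).

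Cytosolic tRNA synthetase genes, many of which ATF4 raises, showed small ratios on both sides, with more of them above level than below. Of 20 measured, 0 were 1.5-fold apart, where 3.52% of all measured genes were as far higher and 5.43% as far lower. Above level were 14 and below it 6, and the median log2 ratio was 0.04. The interval lay above level for 6 and below it for 1, beside 12.5% and 9.3% of all measured genes. Aars, whose promoter window is printed above, had 1884 reads in H2AZcKO, against 1534 in H2AZfl/fl, a log2 ratio of 0.24 (0.14 to 0.34), and Rars was at 0.22 (0.06 to 0.38) and Lars at 0.20 (0.04 to 0.36). Qars, the glutaminyl-tRNA synthetase gene, was the exception, with 522 and 700 reads in the same order and a log2 ratio of -0.48 (-0.65 to -0.31).

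Neighbouring metabolic and stress programmes did not lean to the higher side. Among 16 other genes of serine, glycine and one-carbon metabolism the median log2 ratio was -0.02 and 0 were 1.5-fold apart; among those furthest from level were Mthfd1l at -0.26, Gcsh at 0.18 and Gldc at -0.15. Of 20 genes of the ATF6 and XBP1 arms of the response to misfolded proteins, 16 were below level, 0 were 1.5-fold apart and the median was -0.06. Hspa5, the chaperone BiP, had 2217 reads in H2AZcKO, against 2327 in H2AZfl/fl, a log2 ratio of -0.13 (-0.21 to -0.04), Hsp90b1 was at -0.17 (-0.25 to -0.09), Atf6 at -0.22 (-0.43 to -0.02) and Sdf2l1 at -0.28 (-0.73 to 0.17). Of 11 genes of mitochondrial stress, 0 were 1.5-fold apart, 2 had an interval below level, Htra2 at -0.41 and the protease gene Lonp1 at -0.20, and the median was -0.07; Oma1, the protease that relays mitochondrial stress to eIF2 kinases, was at 0.24 (-0.26 to 0.76) and Dnaja3 at -0.19 (-0.41 to 0.04). Over the 9 pathway lists without the members, 119 genes were measured once each, of which 2 were at least 1.5-fold higher and 3 at least 1.5-fold lower, with a median of -0.0095.

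**Figure D4:**
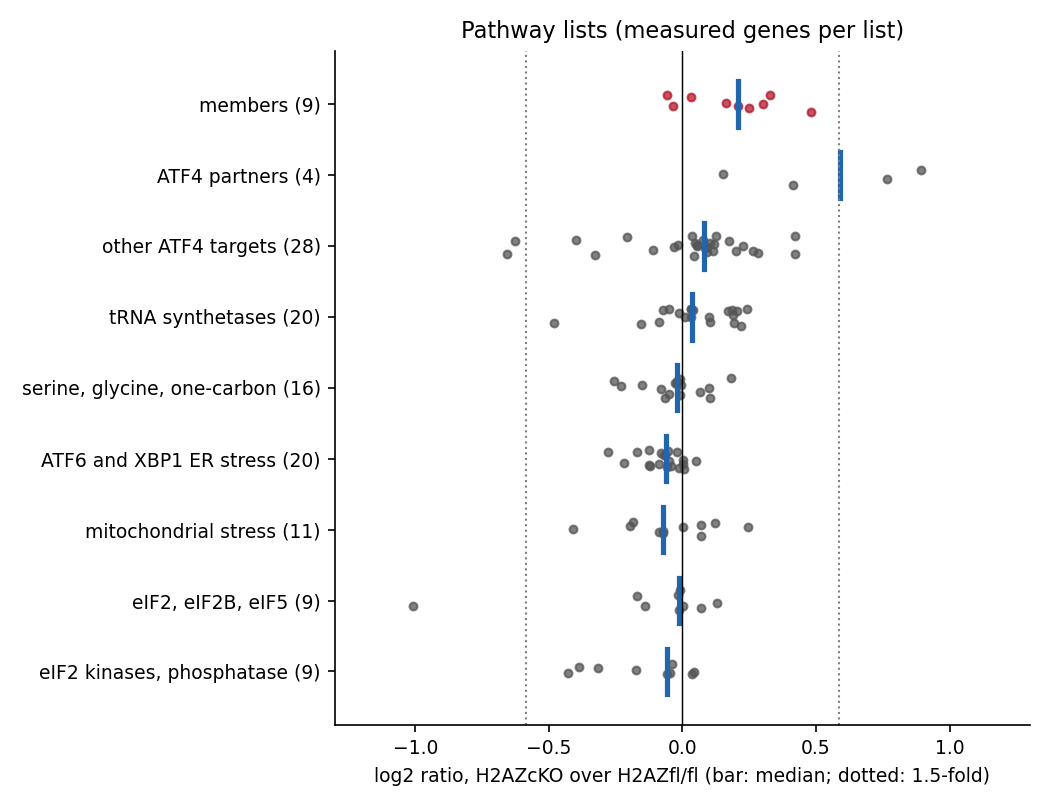
Log2 ratio of H2AZcKO over H2AZfl/fl for the measured genes of each pathway list, with the number measured in brackets; points are genes, bars are list medians and dotted lines mark 1.5-fold. The members have a median of 0.21 and the genes of the ATF6 and XBP1 arms one of -0.06.

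The response element was searched for as TGATGNAA on both strands from 250 bases before to 50 after each RefSeq start. It was found for 3 of the 9 members with a promoter in the table, Asns, Chac1 and Trib3, beside 4.51% of 27025 genes with a promoter and 2.68% of the measured ones. Aldh1l2 is named only. In Asns the element runs from base -23 to -16, in Chac1 from -193 to -186 on the opposite strand, and in Trib3 it lies after the start, from base 15 to 22, as TTACATCA. Of the measured members, Asns had the highest ratio and Chac1 the lowest. With 21 reads in each library, Chac1 had an interval from -1.0 to 0.89, so its place among the members is not resolved. Slc7a11 holds the element in both orientations, without overlap, and was lower, whereas Jdp2 holds it once and was higher. Of 12 measured pathway genes with the element before the start, 8 were above level and 4 below, and the median log2 ratio was 0.07. Of the 12, 2 were 1.5-fold apart, where 3.52% of all measured genes were as far higher and 5.43% as far lower. Among all measured genes with a promoter in the table, 4.88% of the 287 with the element and 2.85% of the 10423 without it were at least 1.5-fold higher, and 8.36% and 4.81% were at least 1.5-fold lower, with medians of 0.0031 and -7.66e-05. A match of these letters is a description of the window and not a binding site.

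Markers of choroid plexus and meninges stood further apart between the libraries than the members, as medians. The counts below stand beside 3.52% of all measured genes at least 1.5-fold higher and 5.43% at least 1.5-fold lower. Choroid plexus markers were at least 1.5-fold lower in H2AZcKO for 9 of 10 measured genes, a median log2 ratio of -5.05, with a summed level of 25.9 CPM in H2AZcKO and 818 CPM in H2AZfl/fl, and Cldn2 and Kcnj13 were at 0 in H2AZcKO; Ttr had 12 and 6025 reads in the same order. Meningeal markers were at least 1.5-fold lower for 10 of 11, a median of -3.66, with 66.7 CPM in H2AZcKO and 406 CPM in H2AZfl/fl, and Col1a1 at -4.76. Markers of the diencephalon and midbrain were at least 1.5-fold higher for 6 of 9, with 217 CPM in H2AZcKO and 89.2 CPM in H2AZfl/fl, with Tcf7l2 at 3.13, and 3 were below level. Those of the ventral telencephalon were above level for 11 of 12 and at least 1.5-fold higher for 6 of 12, with 1109.5 CPM in H2AZcKO and 736 CPM in H2AZfl/fl and with Isl1 at 1.65. Endothelial, microglial and erythroid markers were at least 1.5-fold lower for 2 of 10, 2 of 9 and 1 of 7. At least 1.5-fold higher were 0, 1 and 0 in the same order, and in lists this short such counts say little. Their medians were -0.31, -0.15 and -0.28, with summed levels of 195, 50.4 and 257 CPM in H2AZcKO and 227, 66.6 and 314 CPM in H2AZfl/fl.

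Markers of the cell types that make up the cortex, all measured, differed less. Radial glia, in which Phgdh is known to be abundant, had a median log2 ratio of -0.10 over 11 measured genes and summed to 1984 CPM in H2AZcKO and 2087 CPM in H2AZfl/fl. Intermediate progenitors had a median of -0.09 over 8, with 1026 CPM in H2AZcKO and 1071 CPM in H2AZfl/fl. Neuronal markers had a median of 0.19 over 10, close to the 0.21 of the members, with 7528 CPM in H2AZcKO, against 6839 CPM in H2AZfl/fl. Of these 10, 1 was at least 1.5-fold higher, Nefl at 1.11, beside 3.52% of all measured genes. The interval lay above level for 8 neuronal, 1 radial glial and 2 intermediate progenitor markers, beside 12.5% of all measured genes. It lay below level for 0, 4 and 3 in the same order, beside 9.3%. The most-read markers have narrow intervals that clear level at small ratios. In bulk tissue, fewer cells of a type and less RNA per cell cannot be told apart, and the part of these differences in make-up in the members' ratios was not tested.

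**Figure D5:**
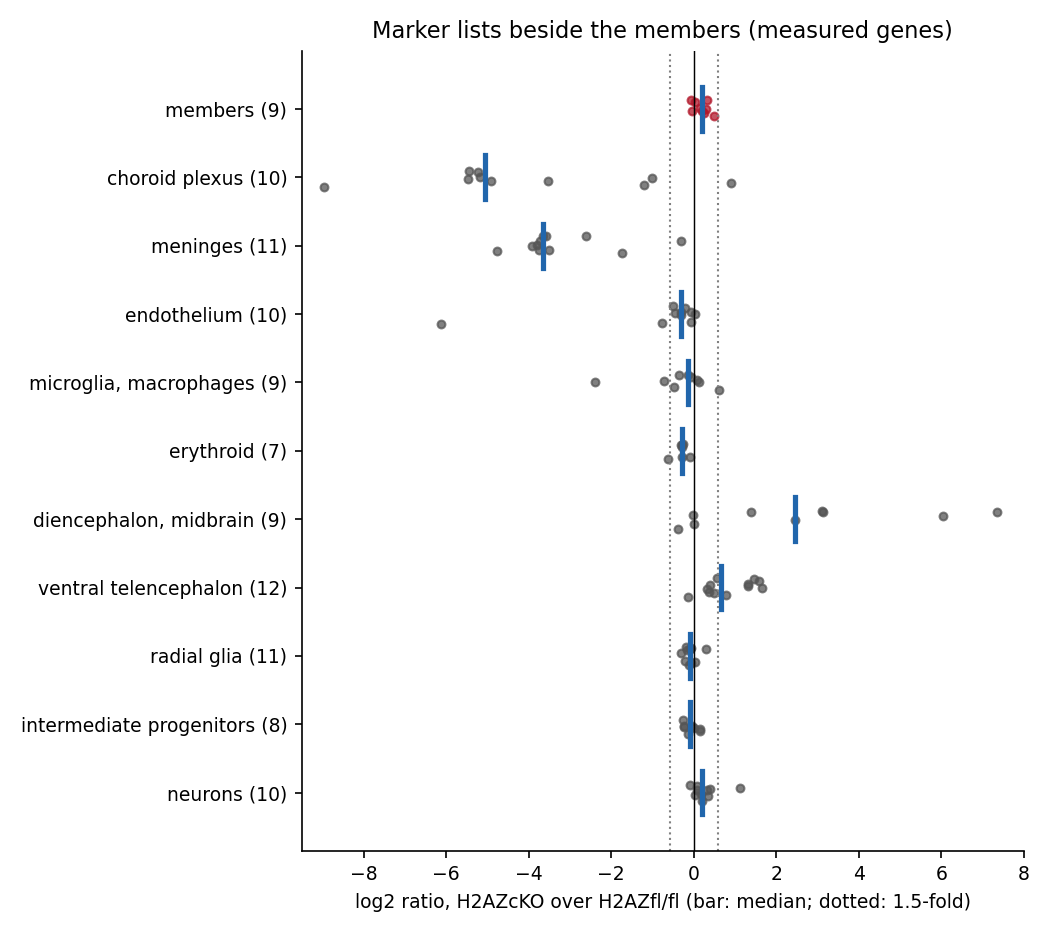
Log2 ratio of H2AZcKO over H2AZfl/fl for the members and for the measured genes of 10 marker lists, with the number measured in brackets; points are genes, bars are list medians and dotted lines mark 1.5-fold, and genes with 0 reads in a library are placed by the prior of 0.5 read. Choroid plexus and meningeal genes lie to the left, diencephalic and midbrain genes to the right, and the members stay near level.

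The authors' deposited table gives its log2 values as control over knockout, and does not name its test. In the authors' deposited table, 3 members had an adjusted p under 0.05, Atf4 with 5.05e-05, Asns with 0.0068 and Psat1 with 0.0168, as did 7.4% of all genes listed. The authors' deposited table marks 0 of the 10 members as significant, beside 318 of all 19720 genes listed, so the 0 says little of the members. Eif2s2 is among the genes marked there. These values rest on the same single pair of columns.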

How the data were processed

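Levels and ratios come from the deposited raw counts, a single column for H2AZcKO and another for H2AZfl/fl, per the file headers. The table further holds the authors' CPM (counts over a constant, 0 replaced by 0.5), a fold column of control over knockout, its log2, and p-value columns, per the file headers. HTSeq 0.6.0, TopHat2 2.0.12, Bowtie2 2.2.3 and the build mm9 are named, without roles, per the submitters' processing notes. Positions were identical to GENCODE M21 on GRCm38 for 78.9% of genes, including 9 of the 10 members, so coordinates are given as GRCm38; 19616 identifiers matched a symbol and 104 did not. Counts were scaled by TMM in edgeR 4.0.16 (R 4.3.3). Other steps used Python 3.11.15, pandas 2.3.3, scipy 1.17.1 and matplotlib 3.10.9. The interval calculation was tested on simulated Poisson counts with no spread between animals. That setting is the one the interval assumes, so it checks the arithmetic only.

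With 1 library per genotype no test between genotypes was made. The members and lists were chosen with earlier results of these data known; 1 gene entered in error was taken off the mitochondrial list after its value was seen. The rule for named genes was all members, the measured genes of eIF2, eIF2B, the eIF2 kinases and phosphatase, ATF4 partners and paralogs, up to 4 genes furthest from level in other lists, and pathway genes at least 1.5-fold apart; other names are marked in the text, and 1 gene that the rule names is not reported here. In GENCODE M21, 5 of 10 members have an overlapping gene model. Alternatives were other scalings, including DESeq2 1.42.0 size factors, a prior of 5 reads, a minimum of 100 reads or none, and a fold of 2.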

Additional observations from a re-analysis of the deposited data

How the results depend on the processing

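No paired analysis was possible because each genotype has 1 library, and for the same reason no replicate could be left out. Scaling by total reads, by DESeq2 size factors or by the upper quartile moved every log2 ratio by -0.0348, 0.0234 and 0.0056. Under all alternatives run, 0 members were 1.5-fold apart, no called value changed sign, and Asns stayed between 0.447 and 0.505 and Atf4 between 0.266 and 0.324 on the log2 scale. Phgdh ranged from -0.0038 to 0.0544. All measured genes at least 1.5-fold higher numbered 506, and 165 with a minimum of 100 reads, 1833 with no read minimum and 138 with a fold of 2. All measured genes at least 1.5-fold lower numbered 780, and 200, 2303 and 289 under the same alternatives. Of the 2 ATF4 partners that were 1.5-fold higher, 1 was left with a minimum of 100 reads and 0 with a fold of 2. Of the 2 lower ATF4 targets, 1 was left with a minimum of 100 reads or a prior of 5 reads and 0 with a fold of 2. At this depth Trib3, Atf3, Nupr1 and Cebpb fell under the read minimum, and Chac1 and Cebpd have intervals that reach past 1.5-fold.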
